A study of Mus musculus with 8 samples.

Results

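The genes described here belong to the families whose enzymes put methyl groups on histone lysines, called writers, or take them off, called erasers. They were sorted by family name, so both classes also hold relatives with little, disputed or other activity, such as Kmt2e, Setd3, Kdm8 and most Prdm genes. Members were found by gene symbol, as the Kdm, Kmt, Setd, Suv, Ezh and Ehmt families, Nsd1, Smyd2 to Smyd5 and the numbered Prdm genes. The pattern matched 62 of the 20701 gene symbols in the table, and the rule left out 3 of these, Kdm5c, Kdm5d and Kdm6a, all on the sex chromosomes. The remaining 59 genes comprised 44 writers, among them 14 Prdm genes, and 15 erasers. The question was whether their RNA differed between embryos with and without Isl1, a LIM and homeobox protein that marks the progenitors of the second heart field. RNA was sequenced from the pharyngeal mesoderm and heart of single C57BL/6 mouse embryos at E8.75 (6 somites). There were 4 Isl1-/- embryos, called Isl1 KO or knockout, and 4 wild-type embryos. The labels name no transgene, Cre driver or treatment and give the genotype of the embryo as a whole.

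Methylation of histone H3 on lysine 4 marks active promoters and enhancers, whereas methylation on lysines 9 and 27 marks silent chromatin. The Polycomb complex PRC2 writes the mark on lysine 27 through Ezh2, the main enzyme of dividing embryonic cells, or through Ezh1, its paralog of slowly dividing cells. The KMT2 enzymes and Setd1a and Setd1b write lysine 4 within COMPASS complexes. Erasers use 2 chemistries. Kdm1a (LSD1) and Kdm1b are flavin-dependent oxidases, and the other Kdm enzymes carry a JmjC domain that needs iron, oxygen and 2-oxoglutarate. Heart development is known to need several of these enzymes, among them Kmt2d and Ezh2.

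Counts per embryo summed to between 18916449 and 26153048 reads over 1 transcript per gene. Levels below are CPM, counts per 1000000 reads after TMM scaling of the libraries, listed in the order of embryos 1 to 4 of each genotype, with the SD over 4 embryos as the spread. The targeted gene Isl1 gave 9.72, 9.76, 26.9 and 23.3 CPM in the 4 wild types and 2.32, 2.16, 1.78 and 2.40 CPM in the 4 knockouts (log2 fold change -3.00, SE 0.36, edgeR FDR 0.0041). Cardiomyocyte markers moved with the genotype. The summed level of 8 of them (Tnnt2, Myh6, Myh7, Actc1, Nkx2-5, Myl7, Ttn and Myl4) was 2880 to 4290 CPM in wild-type embryos and 1520 to 2320 CPM in knockout embryos, and 7 of the 8 passed an FDR of 0.05. In whole tissue, fewer cells of a type and less RNA per cell cannot be told apart, and the part of this shift in the values of the methylation genes was not tested. The summed markers of the other tissues overlapped between genotypes. For 6 pharyngeal mesoderm genes, among them the targeted Isl1, the ranges were 69.3 to 93.4 CPM in knockout and 80.7 to 118 CPM in wild-type embryos. Isl1 alone had a mean of 2.16 CPM in knockouts and 17.4 CPM in wild types, so its loss lowers the knockout sum by design. For 5 visceral endoderm genes the ranges were 268 to 4490 CPM in knockout and 347 to 3060 CPM in wild-type embryos. Members of the pharyngeal list differed in sign, with Isl1 and Fgf10 (log2 fold change -0.55, edgeR FDR 0.148) lower and Tbx1 (0.98, edgeR FDR 0.248) higher in the knockout, and the groups of Fgf10 did not overlap (12.9 to 21.7 CPM in wild types, 9.31 to 12.7 CPM in knockouts). The widest spread within a genotype was in the endoderm and in primitive erythroid genes, the latter at 1230 to 3070 CPM in knockout and 363 to 2320 CPM in wild-type embryos.

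Nearly all members were expressed. To set genes side by side, CPM were divided by transcript length in kilobases, and in this paragraph each level is the mean of the 8 embryos on that scale. Ezh2 had the highest level, 105 CPM per kilobase. It was followed by Kdm1a, the LSD1 eraser of lysine 4 methylation, at 72.7, and by Setd5, a SET-domain protein of chromatin, at 66.4. Kmt5a, the enzyme of histone H4 lysine 20 monomethylation, stood at 64.6 and Smyd5, a SET and MYND domain protein, at 53.0. The lowest levels belonged mostly to Prdm genes. Prdm8 and Prdm12, both factors of the nervous system, were at 0.186 and 0.388 CPM per kilobase, and Prdm11 at 0.61. Prdm14, a factor of germ cells and pluripotent cells, and Kdm4d, an H3 lysine 9 eraser of the testis, were at 0.0209 and 0.0208 and were the 2 members that did not pass the filter on low counts. The germ cell markers Dppa3, Nanos3 and Dazl did not pass it either. The other listed germ cell marker, Dnd1, passed it. Before division by length its means were 4.24 CPM in wild-type and 3.58 CPM in knockout embryos.

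**Figure D1:**
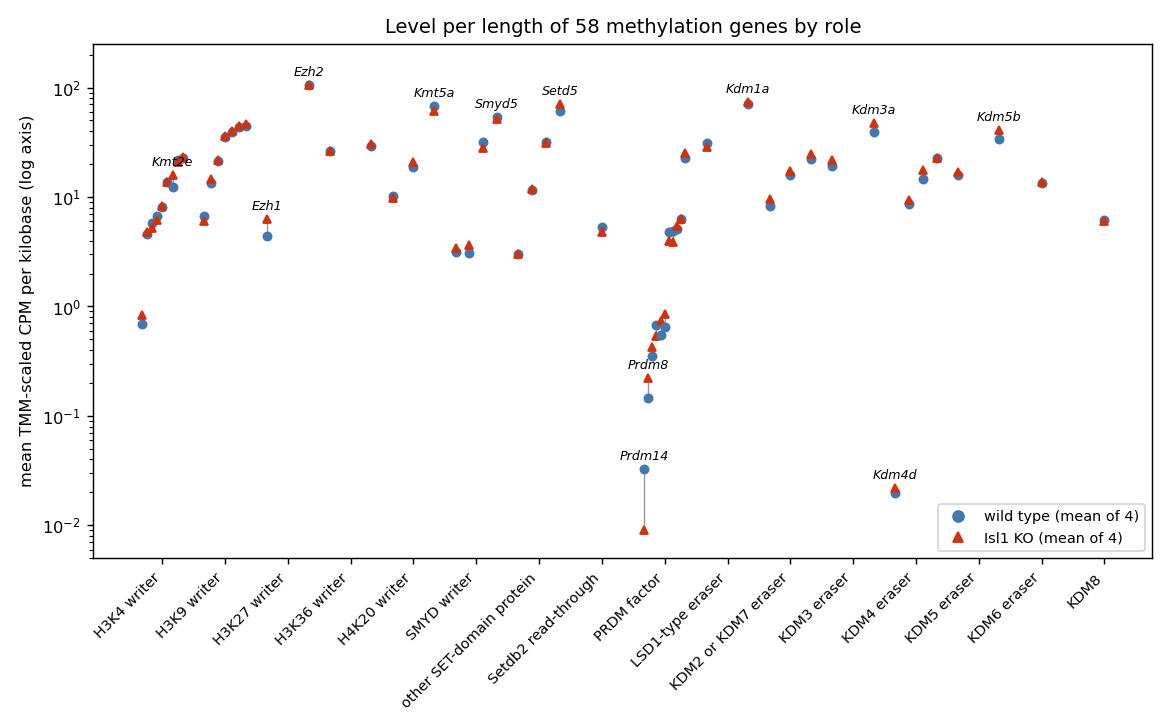
Mean level per length (TMM-scaled CPM per kilobase, log axis) of 58 members, grouped on the horizontal axis by the mark or family, with circles for the mean of 4 wild-type and triangles for the mean of 4 Isl1 KO embryos. Ezh2 stands highest at 105 and Kdm4d and Prdm14 lowest near 0.02, and for most genes the paired symbols lie on top of each other.

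No member passed the test across all genes. Of 14075 genes tested with the quasi-likelihood test of edgeR, 137 (0.973%) passed an FDR of 0.05, and 0 of the 57 tested members were among them. DESeq2 on the same counts called 699 of 14065 genes with an adjusted p (4.97%), and among the members it called 2, Ezh1 and Kmt2e. An unadjusted edgeR p under 0.05 was reached by 9 members (15.8%), close to the 17.4% of all genes that reached it. Of the 57 tested members, 8 had such a p with a higher value in the knockout, against 1038 of the 14075 genes (7.37%). A lower value with such a p was found in 1 of the 57, against 1415 of the 14075 genes (10.1%). No member passed a 1.5-fold change with an unadjusted edgeR p under 0.05, which 3.88% of all genes did. The study applied the same cutoffs to DESeq2 results. With DESeq2 here the count of members was also 0, and the share of all genes was not computed. Leaving out 1 embryo changed the edgeR count. Without wild-type embryo 3 it was 1, Ezh1 at 0.60 (4.75% of all genes), and without knockout embryo 2 it was 2, Ezh1 at 0.59 and Prdm6 at -0.68 (4.29% of all genes). The ranges of the genotypes were separate in 3 members (5.26%), Ezh1, Prdm16 and Prdm4, against 10.3% of all genes.

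The size of the differences was bounded closely. The 95% confidence interval of the fold change lay wholly within 1.5-fold in either direction for 47 of the 57 members (82.5%), against 68.9% of all genes tested. Fold changes of the members ran from -0.34 to 0.60 on the log2 scale. The median was 0.04, beside 0.01 over all genes, and 40 of 57 members (70.2%) had a higher mean in the knockout, beside 51.2% of all genes. Among the writers 28 of 43 were higher and the median was 0.03. Among the erasers 12 of 14 were higher and the median was 0.12.

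**Figure D2:**
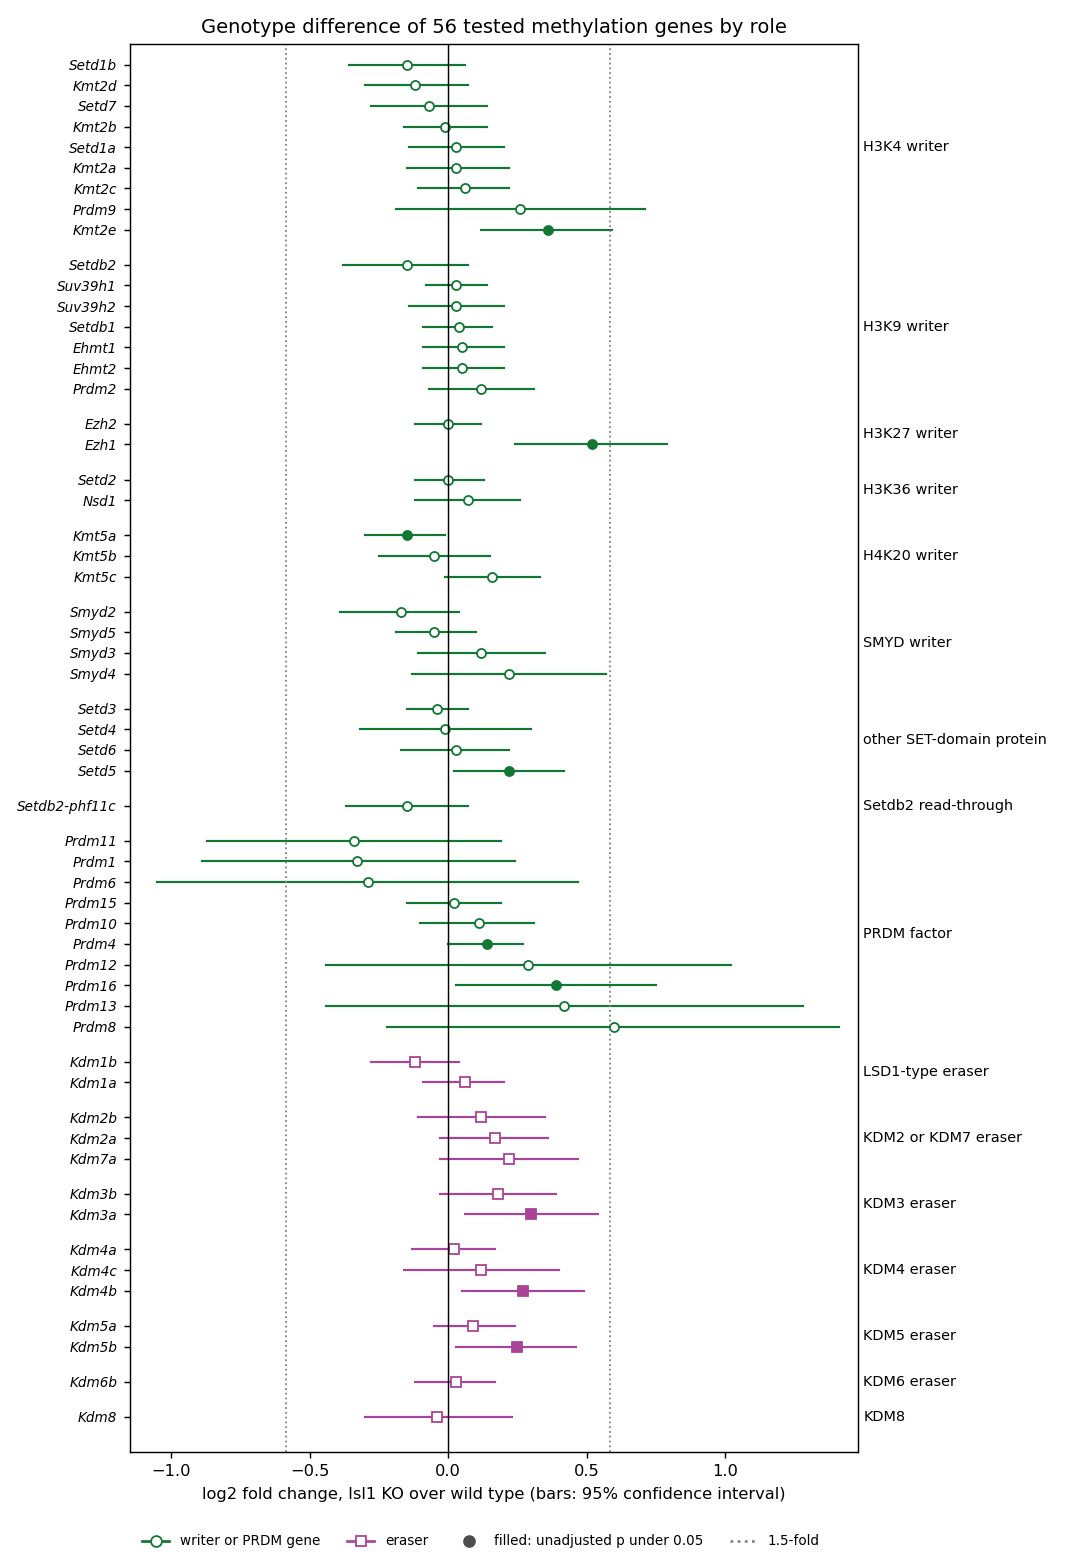
Log2 fold change of Isl1 KO over wild type with its 95% confidence interval for 56 tested members, ordered by the mark or family (circles, writers and Prdm genes; squares, erasers; filled symbols, unadjusted edgeR p under 0.05; dotted lines, 1.5-fold). Most intervals lie between the dotted lines, those of Prdm8, Prdm12, Prdm13, Prdm6, Prdm1 and Prdm11 are the wide ones, and 12 of 14 eraser symbols lie to the right of 0.

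Of the 2 enzymes of lysine 27, Ezh1 had the lowest p of all members. Ezh1 (chr11:101052429-101087777, minus strand, mm9) stood at 17.2, 18.5, 21.7 and 16.2 CPM in the wild-type group and 25.8, 22.3, 26.8 and 30.3 CPM in the knockout group. Every knockout embryo lay above every wild-type embryo, and the mean was 18.4 ± 2.38 CPM in wild types and 26.3 ± 3.27 CPM in knockouts, 43.1% higher. The log2 fold change was 0.52 (SE 0.12, 95% interval 0.24 to 0.79), with an unadjusted p of 0.00182 and an edgeR FDR of 0.0855. Ezh1 passed the threshold with DESeq2 (adjusted p 0.00437) and in edgeR without wild-type embryo 3 (FDR 0.0298). Its unadjusted p stayed under 0.05 in all 14 alternative analyses, with log2 fold changes of 0.44 to 0.60 and adjusted p values of 0.00437 to 0.266.

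Ezh2 (chr6:47480273-47545340, minus strand, mm9) had 271, 262, 285 and 276 CPM across the wild-type embryos and 283, 263, 275 and 274 CPM across the knockouts. The groups covered the same range. Its log2 fold change in edgeR was 0.00 (SE 0.05, FDR 0.993, 95% interval -0.12 to 0.12). Per length, Ezh1 stood at 3.97%, 4.43%, 4.75% and 3.66% of the level of Ezh2 in wild-type embryos and at 5.70%, 5.32%, 6.10% and 6.92% in knockout embryos. Ezh2 thus remained the far more abundant transcript in each of the 8 embryos.

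The promoters of most members were rich in CG dinucleotides, the sites of DNA methylation and the targets of the CXXC domains of Kdm2a, Kdm2b, Kmt2a and Kmt2b. RefSeq promoters on GRCm38.p6, 250 bases before to 50 after the start site, were found for 44 of the 59 members, and where a gene had several the one with the most CG was used. The letters CG, which read the same on both strands, occurred a median of 29 times in the members, 22 times in 10861 genes tested and 8 times in all 27025 genes with a promoter. At least 1 CG was present in all 44 members, in 99.7% of the genes tested and in 94.6% of all genes. The members ran from 1 in Setd5 to 65 in Kdm7a, with medians of 19 in Prdm genes, 27 in erasers and 33.5 in the other writers. The Setd5 window (chr6:113104685-113104984, GRCm38.p6) may lie inside the gene rather than at its first start site, which is chr6:113027359 in mm9. Coordinates of the builds differ, and this was not tested. The 100 bases before the start site are shown for both Ezh genes and for the erasers Kdm3a and Kdm5b described below, with each CG in capitals (Ezh1 chr11:101226464-101226563, Ezh2 chr6:47595031-47595130 and Kdm3a chr6:71632687-71632786 on the minus strand, Kdm5b chr1:134560078-134560177 on the plus strand).
Ezh1: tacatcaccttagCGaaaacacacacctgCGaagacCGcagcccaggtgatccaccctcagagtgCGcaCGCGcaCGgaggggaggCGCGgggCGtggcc
Ezh2: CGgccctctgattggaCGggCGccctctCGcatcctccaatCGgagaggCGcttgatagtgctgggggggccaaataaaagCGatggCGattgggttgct
Kdm3a: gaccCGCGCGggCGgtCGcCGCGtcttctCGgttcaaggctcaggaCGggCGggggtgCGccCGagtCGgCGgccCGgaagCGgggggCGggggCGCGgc
Kdm5b: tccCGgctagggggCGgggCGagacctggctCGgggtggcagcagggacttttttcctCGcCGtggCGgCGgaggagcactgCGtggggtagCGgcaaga
These windows held 10, 8, 19 and 10 CG in the order shown. The full promoters of 300 bases held 23, 31, 40 and 17 CG in the same order.

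Of the 9 genes grouped with the writers of lysine 4, Kmt2e was the one with an unadjusted p under 0.05 (11.1%, beside 17.4% of all genes). Kmt2e, also called Mll5 (chr5:22940259-23010053, plus strand, mm9), is a divergent member of the family that binds methylated lysine 4 and is not thought to write it itself. It gave 83.3, 89.9, 87.0 and 99.3 CPM in the 4 wild types and 123, 96.5, 105 and 135 CPM in the 4 knockouts. Knockout embryo 2 lay below wild-type embryo 4, and the other knockout embryos lay above all 4 wild-type embryos. In edgeR its log2 fold change was 0.36 (SE 0.11, FDR 0.139), while DESeq2 gave an adjusted p of 0.044. The unadjusted p stayed under 0.05 in all 14 alternatives, with log2 fold changes of 0.22 to 0.44. Reads of both strands were counted, and 11.7% of the exon bases of Kmt2e are shared with exons of Srpk2 on the opposite strand, whose own log2 fold change was 0.11 (SE 0.08, edgeR FDR 0.489). Such overlap exceeded 5% of the exon bases in 6 members. The others were Prdm8 (21.9%), Suv39h1 (11.3%), Suv39h2 (9.98%), Prdm12 (8.09%) and Kmt5b (6.73%).

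The other lysine 4 writers apart from Prdm9 lay close to 0. Kmt2d, a writer at enhancers that heart development requires, stood at 125, 116, 145 and 145 CPM in the wild-type group and 125, 126, 113 and 125 CPM in the knockout group (log2 fold change -0.12, SE 0.08, edgeR FDR 0.494). Kmt2a, the regulator of Hox genes, had means of 132 ± 8.27 and 135 ± 14.4 CPM in wild-type and knockout embryos (log2 fold change 0.03, edgeR FDR 0.867). Setd1a, a writer of trimethylation at promoters, had a log2 fold change of 0.03 (edgeR FDR 0.851), although 51.8% of its exon bases are annotated to Hsd3b7 as well. Setd7, which monomethylates lysine 4 and several other proteins, had a log2 fold change of -0.07 (edgeR FDR 0.748). Kmt2b, Kmt2c and Setd1b ranged from -0.15 to 0.06. The interval of Prdm9, the writer that places meiotic recombination sites, reached from -0.19 to 0.71 at 2.41 CPM in the wild type.

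The 7 writers of lysine 9 lay between -0.15 and 0.12 on the log2 scale. None had an unadjusted p under 0.05, beside 17.4% of all genes. All 7 intervals lay within 1.5-fold, beside 68.9% of all genes. Ehmt1 and Ehmt2 (GLP and G9a), which form a heterodimer that writes mono- and dimethylation, had the same log2 fold change of 0.05, with FDR values of 0.716 and 0.710 in edgeR. Setdb1, the writer recruited to retroelements, had means of 162 ± 9.53 and 166 ± 4.95 CPM (log2 fold change 0.04, edgeR FDR 0.794). Suv39h1, a writer of pericentric heterochromatin and the X-linked gene among the members, ranged from 131 to 138 CPM in wild-type and from 133 to 141 CPM in knockout embryos (log2 fold change 0.03, edgeR FDR 0.806). Setdb2 and the read-through transcript Setdb2-phf11c, which share reads and are not independent, both had a log2 fold change of -0.15. Suv39h2, the autosomal relative of Suv39h1, and Prdm2 had log2 fold changes of 0.03 and 0.12.

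Setd2, the enzyme of lysine 36 trimethylation on transcribed genes, had 232, 204, 219 and 219 CPM across the wild-type embryos and 217, 226, 214 and 220 CPM across the knockouts (log2 fold change 0.00, edgeR FDR 0.980). Nsd1, which writes dimethylation of the same residue, had a log2 fold change of 0.07 (edgeR FDR 0.708). Kmt5a was the one member that was lower with an unadjusted p under 0.05, which held in 4 of the 14 alternatives and was lost with DESeq2. It gave 180, 187, 203 and 181 CPM in the 4 wild types and 167, 183, 158 and 168 CPM in the 4 knockouts. Knockout embryo 2 lay within the wild-type range and the other 3 lay below it (log2 fold change -0.15, SE 0.07, edgeR FDR 0.270). Kmt5b and Kmt5c, which extend the mark of Kmt5a, had log2 fold changes of -0.05 and 0.16.

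Among the 4 SMYD genes and the remaining SET-domain genes, Setd5 had an unadjusted p under 0.05. It stood at 372, 358, 455 and 399 CPM in the wild-type group and 476, 430, 426 and 507 CPM in the knockout group. Wild-type embryo 3 lay inside the knockout range and the other 3 below it (log2 fold change 0.22, SE 0.09, edgeR FDR 0.254, unadjusted p under 0.05 in 8 of 14 alternatives). Smyd2, a writer of lysine 36 and of non-histone proteins, had means of 50.4 ± 6.48 and 44.7 ± 1.77 CPM (log2 fold change -0.17, edgeR FDR 0.390). Smyd4 had a log2 fold change of 0.22 (edgeR FDR 0.505), with an interval from -0.13 to 0.57. Smyd3 (0.12), Smyd5 (-0.05), the actin methyltransferase Setd3 (-0.04), Setd4 (-0.01) and Setd6 (0.03) completed the group. Smyd1, the muscle-specific relative that the symbol rule does not include, is given here for comparison. Its mean was 91.9 CPM in wild-type and 42.1 CPM in knockout embryos (log2 fold change -1.13, SE 0.08, edgeR FDR 0.00174).

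The Prdm genes, of which most act as DNA-binding factors with weak or no enzyme activity, were measured with the least precision, at a median SE of 0.20 on the log2 scale over the 13 tested, against 0.09 over all members. Of 11 tested outside Prdm2 and Prdm9, 4 (36.4%) had an interval within 1.5-fold, beside 68.9% of all genes. The groups were separate in 2 of the 11 (18.2%), beside 10.3% of all genes. An unadjusted p under 0.05 was reached by 2 (18.2%), beside 17.4% of all genes. Prdm16, a regulator of brown fat and of ventricular muscle, had 5.97, 5.23, 4.89 and 6.12 CPM across the wild-type embryos and 9.39, 6.59, 6.17 and 7.0 CPM across the knockouts. The groups did not overlap, but wild-type embryo 4 and knockout embryo 3 lay next to each other (log2 fold change 0.39, SE 0.16, edgeR FDR 0.248, unadjusted p under 0.05 in 9 of 14 alternatives). Prdm4 gave 82.5, 83.2, 90.1 and 93.8 CPM in the 4 wild types and 98.8, 95.1, 96.5 and 93.8 CPM in the 4 knockouts. Its groups were separated by less than the rounding of these values (log2 fold change 0.14, SE 0.06, edgeR FDR 0.276, unadjusted p under 0.05 in 6 of 14 alternatives).

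Prdm1 and Prdm6 are factors with roles in the pharyngeal region and in smooth muscle. Prdm1 stood at 15.6, 21.0, 41.3 and 24.2 CPM in the wild-type group and 20.2, 20.5, 17.4 and 23.3 CPM in the knockout group (log2 fold change -0.33, SE 0.25, edgeR FDR 0.546). The difference of the means rested on wild-type embryo 3, without which the log2 fold change was 0.01. Prdm6 had 10.3, 14.2, 15.9 and 9.69 CPM across the wild-type embryos and 4.91, 17.5, 10.8 and 7.73 CPM across the knockouts (log2 fold change -0.29, edgeR FDR 0.70). Its highest and its lowest value were both in the knockout group, and the log2 fold change was -0.68 without knockout embryo 2 and -0.06 without knockout embryo 1. For Prdm8, Prdm11 and Prdm12, at about 1 CPM or less, the intervals of -0.22 to 1.41, -0.87 to 0.19 and -0.44 to 1.02 include a change of more than 1.5-fold. The same held for Prdm13, at 1.75 CPM in the wild type, with an interval of -0.44 to 1.28. Prdm10 and Prdm15 were better measured and had log2 fold changes of 0.11 and 0.02.

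**Figure D3:**
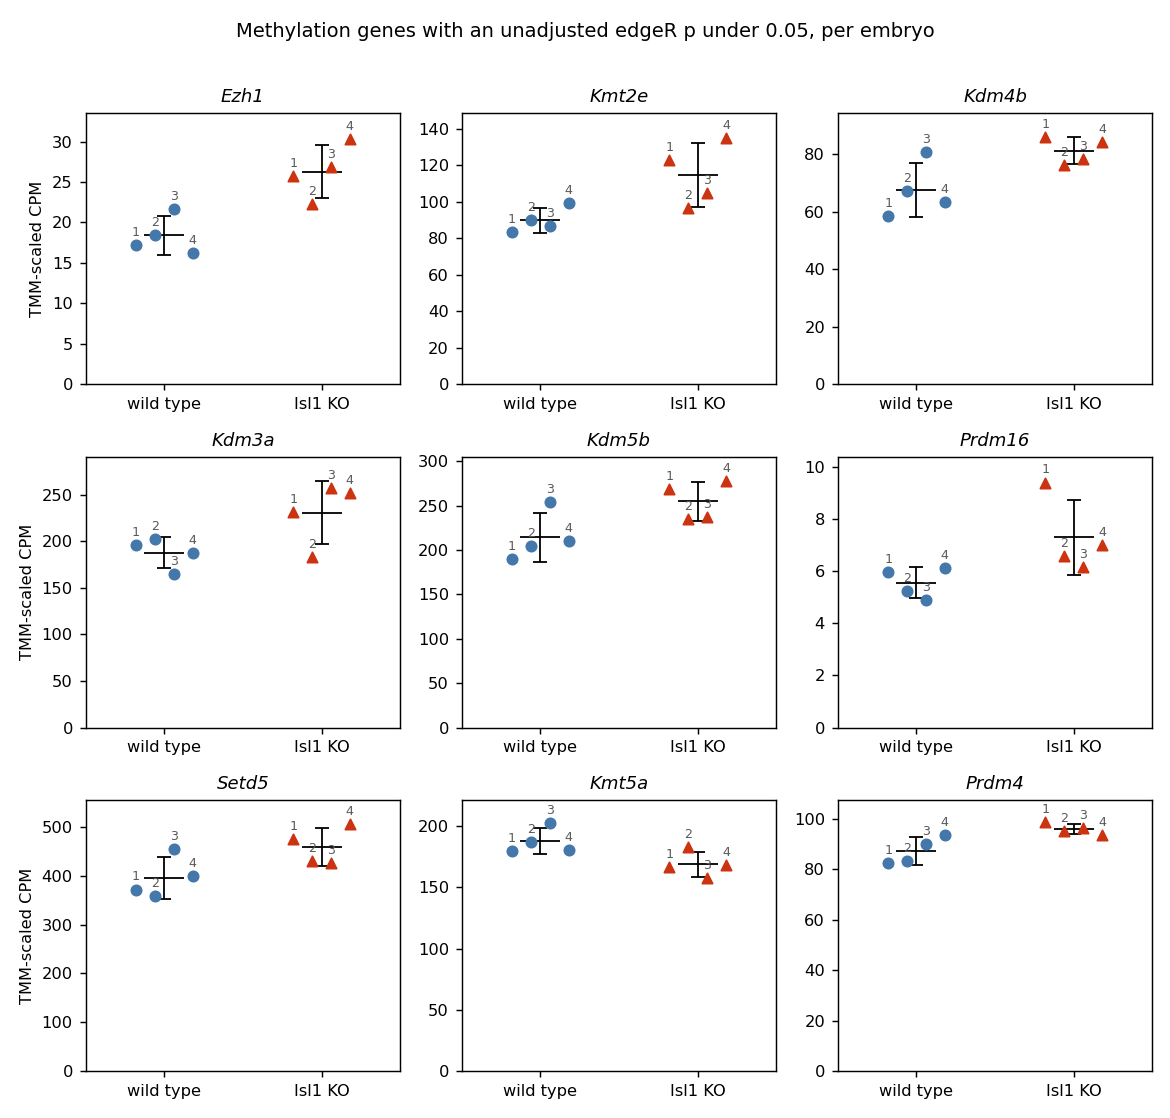
TMM-scaled CPM in each embryo for the 9 members with an unadjusted edgeR p under 0.05 (circles, wild type; triangles, Isl1 KO; digits, the replicate number; bars, mean and SD of 4 embryos; axes start at 0). The groups are separate for Ezh1 and Prdm16, nearly touch for Prdm4 and overlap in the others, Kmt5a is the one gene lower in the knockout, and knockout embryo 2 is the lowest knockout value in 5 of the other 8.

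The erasers had small differences of mostly 1 sign. The 14 tested genes ranged from -0.12 to 0.30 on the log2 scale, 3 (21.4%) had an unadjusted p under 0.05, near the 17.4% of all genes, and all 14 intervals lay within 1.5-fold, beside 68.9% of all genes. These 3 were Kdm3a, Kdm4b and Kdm5b, and all had higher means in the knockout. In 0 of the 14 were the groups separate, beside 10.3% of all genes. Over the 14 alternatives the unadjusted p stayed under 0.05 in 10 for Kdm3a, 9 for Kdm4b and 8 for Kdm5b.

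Kdm3a (chr6:71538968-71582899, minus strand, mm9), an eraser of lysine 9 mono- and dimethylation, gave 196, 203, 165 and 187 CPM in the 4 wild types and 231, 183, 257 and 252 CPM in the 4 knockouts. Knockout embryo 2 lay within the wild-type range and the other 3 lay above it (log2 fold change 0.30, SE 0.11, edgeR FDR 0.205). Kdm4b (chr17:56465485-56542293, plus strand, mm9), an eraser of lysine 9 trimethylation, stood at 58.6, 67.2, 80.6 and 63.3 CPM in the wild-type group and 85.8, 76.2, 78.4 and 84.3 CPM in the knockout group. Here it was wild-type embryo 3 that lay inside the range of the other group (log2 fold change 0.27, SE 0.10, edgeR FDR 0.204). Kdm5b (chr1:136456748-136529454, plus strand, mm9), an eraser of lysine 4 di- and trimethylation, had 190, 204, 254 and 210 CPM across the wild-type embryos and 269, 235, 237 and 278 CPM across the knockouts. The same wild-type embryo again lay inside the knockout range (log2 fold change 0.25, SE 0.10, edgeR FDR 0.231). In the promoter windows shown above, Kdm3a held 19 and Kdm5b 10 CG in 100 bases.

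The remaining erasers lay nearer to 0. Kdm6b (JMJD3), the lysine 27 eraser opposite to the Ezh enzymes, gave 85.5, 88.8, 93.0 and 87.9 CPM in the 4 wild types and 95.4, 81.4, 91.0 and 94.6 CPM in the 4 knockouts. The groups overlapped throughout, and the log2 fold change of 0.03 had an interval of -0.12 to 0.17 (edgeR FDR 0.848). Kdm1a had a log2 fold change of 0.06 (edgeR FDR 0.706), and its paralog Kdm1b of -0.12 (edgeR FDR 0.416). Kdm8, a JmjC protein whose activity on histones is disputed, was the other eraser with a lower mean, at -0.04. Kdm4a had a log2 fold change of 0.02 (edgeR FDR 0.897) and Kdm5a of 0.09 (edgeR FDR 0.497). Kdm2b, which recruits a Polycomb complex to CG-rich promoters, had a log2 fold change of 0.12 (edgeR FDR 0.582). Kdm7a, an eraser of lysines 9 and 27, stood at 75.8, 79.7, 77.9 and 81.6 CPM in the wild-type group and 93.3, 76.1, 82.9 and 115 CPM in the knockout group (log2 fold change 0.22, edgeR FDR 0.349). Kdm2a, Kdm3b and Kdm4c, paralogs of the genes above, had log2 fold changes of 0.17, 0.18 and 0.12.

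Erasers and writers were then set against each other in each embryo. The summed level per length of the tested erasers was divided by that of the tested writers. The read-through transcript Setdb2-phf11c was left out of this sum but kept among the 43 writers below. The ratio came to 0.388, 0.403, 0.397 and 0.378 across the wild types and to 0.428, 0.395, 0.423 and 0.434 across the knockouts. The wild-type mean was 0.392 ± 0.0111 and the knockout mean 0.420 ± 0.0171, a difference of 0.0284. Knockout embryo 2 lay within the wild-type range, and the other 3 knockout embryos lay above it. The median deviation of the 14 erasers from their means over all embryos was -0.12, -0.07, 0.10 and -0.10 on the log2 scale in the 4 wild types, against 0.12, -0.02, 0.03 and 0.12 in the 4 knockouts. For the 43 writers it was -0.05, -0.08, 0.03 and 0.01, then 0.05, 0.01, -0.02 and 0.06. These values describe the members and carry no test.

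**Figure D4:**
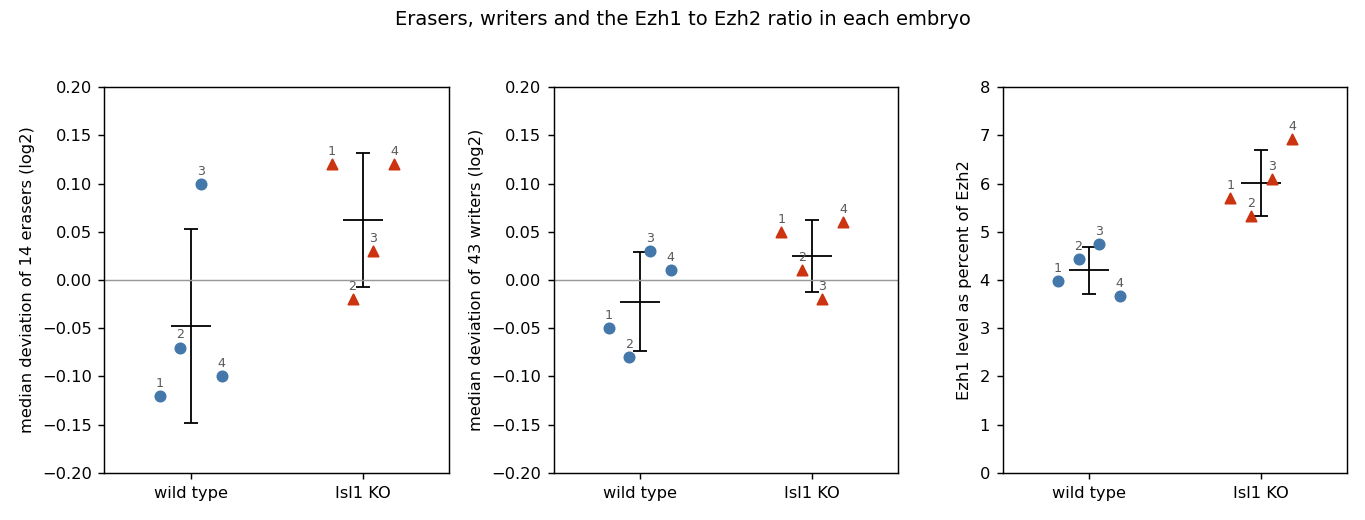
Per embryo, the median log2 deviation of 14 erasers (left) and 43 writers (middle) from each gene's mean over the 8 embryos, and the level per length of Ezh1 as a percent of that of Ezh2 (right); circles are wild-type and triangles Isl1 KO embryos, digits the replicate number, and bars the mean and SD of 4. In the eraser panel wild-type embryo 3 lies at 0.10 among the knockout embryos and knockout embryo 2 at -0.02 is the lowest of its group, while the Ezh1 to Ezh2 percentages of the genotypes do not overlap.

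Single embryos weighed on these values. Wild-type embryo 3 was the highest wild-type embryo in 9 of 14 erasers (64.3%) and in 54.4% of members, against 35.2% of all genes tested. Without it 490 of 14178 genes passed the edgeR FDR (3.46%), and 4 members were among them, Ezh1 (FDR 0.0298), Kdm2a (FDR 0.0338), Kdm4b (FDR 0.0344) and Kdm5b (FDR 0.0486). The median of the erasers was then 0.17. This embryo also stood apart among the wild types in its marker sums. It was lowest in cardiomyocyte genes (2880 CPM) and primitive erythroid genes (363 CPM, others 1150 to 2320 CPM). It was highest in visceral endoderm genes (3060 CPM, others 347 to 1750 CPM) and pharyngeal mesoderm genes (118 CPM, of which Isl1 gave 26.9 CPM). The part of these tissues in the values was not tested. Knockout embryo 2 was the lowest knockout embryo in 8 of 14 erasers (57.1%), against 27.4% of all genes. Its library is labelled total RNA, whereas the labels of the 7 others name polyA RNA. Among the knockouts it was lowest in cardiomyocyte genes (1520 CPM) and highest in visceral endoderm genes (4490 CPM, others 268 to 3050 CPM) and primitive erythroid genes (3070 CPM, others 1230 to 1850 CPM). Without it 0 members passed the edgeR FDR (0.973% of all genes), 10 had an unadjusted p under 0.05 (17.7% of all genes), and 12 of 14 erasers still had the higher mean in knockouts (median 0.16).

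The sexes of the embryos were unevenly spread. Transcripts from the Y chromosome (Ddx3y, Eif2s3y and Uty) were present in knockout embryos 1, 3 and 4 and in wild-type embryo 4, so that knockout embryo 2 was also the one knockout embryo without them. With the mean level of these genes as a covariate, Ezh1 (log2 fold change 0.50, edgeR FDR 0.266) and Kmt2e (0.22, edgeR FDR 0.393) were the members with an unadjusted p under 0.05, beside 12.6% of all genes. Within the embryos with Y-linked reads, the log2 ratio of the knockout mean to the wild-type value was 0.77 for Ezh1, 0.29 for Kmt2e, 0.40 for Kdm3a, 0.39 for Kdm4b and 0.31 for Kdm5b. Between knockout embryo 2 and the 3 wild-type embryos without such reads it was 0.22, 0.15, -0.04, 0.15 and 0.12 in the same order. The other tested erasers held both signs in each set. They ran from -0.18 for Kdm8 to 0.46 for Kdm4c in the first set. In the second they ran from -0.19 for Kdm4c to 0.14 for Kdm2a and Kdm3b. Each of these ratios has a single embryo on 1 side and carries no test, and genotype and RNA type cannot be told apart in the second set.

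The partners of the enzymes were examined by fixed lists. Of 9 PRC2 subunits, 0 passed the edgeR FDR, beside 0.973% of all genes, and 3 had a lower mean with an unadjusted p under 0.05, beside 10.1% of all genes. These were Eed, which binds the mark that PRC2 writes (log2 fold change -0.15, edgeR FDR 0.243), the histone chaperone Rbbp4 (-0.14, edgeR FDR 0.247) and Mtf2, which guides PRC2 to CG-rich DNA (-0.16, edgeR FDR 0.256). Suz12, the scaffold of the complex, had a log2 fold change of -0.01 (edgeR FDR 0.972). None of 12 COMPASS subunits, such as Wdr5 (-0.06) and Ash2l (-0.11), had an unadjusted p under 0.05, beside 17.4% of all genes. The median of the 12 was -0.07, beside 0.01 over all genes. Of the 12, 3 (25.0%) were higher in the knockout, beside 51.2% of all genes. The groups were separate in 1 (8.33%), beside 10.3% of all genes. No unadjusted p under 0.05 was found among the 10 tested partners of Kdm1a, with Rcor1 at -0.03 and Hdac2 at -0.13. None was found among 8 tested JmjC genes outside the symbol rule. Of 7 tested SET or DOT1 writers outside the rule, Smyd1 passed the edgeR FDR. The other 6 ranged from -0.04 for Dot1l, the writer of lysine 79, to 0.16 for Ash1l, a writer of lysine 36.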

How the data were processed

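The authors extracted RNA from single embryos, made libraries from 100 ng, sequenced them on a NextSeq500, aligned reads to mm9 with STAR and counted reads on exons of both strands with HOMER. The deposited counts were raw reads per RefSeq transcript, and the deposited length was in bases. Versions were not given in the sources used here. Deposited RPKM and the authors' comparison columns (fold changes, p-values) were not used.

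The table held 31507 transcripts of 20701 symbols. For each symbol the transcript with the highest summed count was kept. The main test was edgeR 4.0.16 under R 4.3.3 (filterByExpr, TMM, quasi-likelihood test on genotype, two-sided, Benjamini-Hochberg FDR over 14075 genes) and with DESeq2 1.42.0 as an alternative. The code was checked on simulated data. Figures used matplotlib 3.10.9. The single Isl1 value was also compared by an exact permutation test (p = 0.0286, the smallest possible for 4 against 4). Intervals and counts cover the spread between embryos and counting error. Positions came from GENCODE vM1 (58 of 59 members found), promoters from RefSeq GRCm38.p6.

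Members and lists were chosen with earlier results of these data known. Named genes were every member with an unadjusted p under 0.05 or without overlap between genotypes, the 5 with the highest and the 5 with the lowest level per length, and a fixed list with known roles in heart or early embryo; other names complete a family and were added after their values were seen. Alternatives were DESeq2, RLE scaling, no filter, a replicate block, a Y-linked covariate, the longest transcript, and leaving out each embryo. Marker lists were cardiomyocyte, pharyngeal mesoderm, endothelial, primitive erythroid, visceral and foregut endoderm, neural, neural crest and germ cell. Summed ranges of those not given above were 231 to 348 CPM in knockout and 295 to 390 CPM in wild-type embryos for endothelial genes, 187 to 274 and 192 to 257 CPM for foregut, 287 to 399 and 294 to 343 CPM for neural, 127 to 241 and 143 to 181 CPM for neural crest, and 3.24 to 4.55 and 3.88 to 5.18 CPM for germ cell genes. No listed marker was at 0 in all embryos. The values of 1 member are not reported here; it is included in the counts and medians.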

Additional observations from a re-analysis of the deposited data

Results flagged for a closer look

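In 6 of 112 groups of 4 embryos, 1 embryo stood apart from the other 3 by more than the 95% critical value of Dixon's gap test, and chance gives about 1 in 20 such groups. Kmt2d was at 113 CPM in knockout embryo 3, with the others at 125 to 126 CPM. Prdm2, a lysine 9 writer, was at 129 CPM in the same embryo, with the others at 140 CPM. Setdb1 was at 173 CPM in knockout embryo 1, with the others at 163 to 164 CPM. Setd7 was at 186 CPM in wild-type embryo 3 (others 151 to 156 CPM). Setd6 was at 18.3 CPM in wild-type embryo 1 (others 19.4 to 19.5 CPM), and Smyd4 at 14.3 CPM in wild-type embryo 4 (others 9.47 to 9.94 CPM).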

How the results depend on the processing

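Of the alternatives, 2 kinds moved a count of members past the FDR. DESeq2 called 2 writers higher in the knockout, and leaving out single embryos gave 0 to 1 writers and 0 to 3 erasers, the upper values without wild-type embryo 3. Over the embryos left out, the median log2 fold change was 0.01 to 0.05 for writers, 0.10 to 0.17 for erasers and 0.00 to 0.02 for all genes. With the Y-linked covariate the sign turned for Ezh2 (-0.02), Kdm6b (-0.02), Kmt2a (-0.04) and Prdm6 (0.04), and outside the named-gene rule for Kmt2b (0.01) and Prdm15 (-0.03). Leaving out embryos turned it in further members, with ranges of -0.02 to 0.03 for Ezh2, -0.02 to 0.06 for Kdm4a, -0.03 to 0.09 for Kmt2a, -0.50 to 0.01 for Prdm1, 0.00 to 0.11 for Setd1a, -0.03 to 0.03 for Setd2 and -0.10 to 0.01 for Setd7. The cause was not tested. With the replicate block 76 genes, against 137 without it, and 0 members passed the edgeR FDR. Same-numbered embryos correlated at 0.124, 0.195, 0.0355 and 0.559 in their deviations from the genotype means, and not every embryo correlated best with its own number, so the numbers were not taken to pair the embryos. The eraser to writer difference was 0.0284 to 0.0288 in its alternatives.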
